A study of Pyrus pyrifolia with 6 samples.

Results

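The regions described here are isolated, short stretches of the pear genome at which CHH methylation was already substantial in the skin of uncovered fruit and was higher still in the skin of bagged fruit. They were chosen from the 53954 regions in the authors' deposited table, each of which the authors had called as differing in methylation between the groups. A region was taken when it lay on a chromosome, was called in CHH context (a cytosine followed by 2 bases other than G), had a higher mean level in bagged than in unbagged skin, was shorter than 300 bp, had no other CHH gain within 1000 bp, and had an unbagged level of 20% or more. A gain means here that the bagged mean was above the unbagged mean. These limits left 7778 regions, which is 14.4% of the table. They are 18.5% of the 42128 CHH gains on chromosomes and 26.6% of the 29210 gains that were both short and isolated. In the table, 90.3% of the 46661 CHH regions on chromosomes were gains, but the direction is part of the choice and nothing is read from it.

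The study measured DNA methylation by whole-genome bisulfite sequencing, in which unmethylated cytosines are read as thymine, in fruit skin of Pyrus pyrifolia 'Cuiguan', a cultivar with partly russeted (brown, corky) skin. Unbagged fruit (3 samples) received no treatment, and bagged fruit (3 samples) was enclosed in single-layer white paper bags at 20 days and in double-layer yellow-white bags at 40 days after full bloom. All skin was collected at 115 days after full bloom, and both groups came from the same cultivar and orchard. The table gives 1 mean level per group and region with the replicates combined, so the spread between samples cannot be given, no test across samples was possible, and the depth behind a level is unknown. Intervals on shares are 95% exact binomial (Clopper-Pearson) intervals, which hold for counting error alone because neighbouring regions may vary together.

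In plants, methylation of CG and CHG sites can be kept through replication because both strands carry a cytosine at the site. CHH sites have no such symmetry, and their methylation has to be set anew, in Arabidopsis by a pathway guided by small interfering RNAs that acts mostly at short transposon remnants and transposon edges, and by a chromomethylase that acts within long, silenced transposons. A high CHH level is therefore usually taken as a mark of ongoing targeting of a site, mostly at repeats. Which of the regions lie in repeats or near genes was not analysed here, and no sequence is printed.

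The chosen regions were heavily methylated for CHH context already in unbagged skin, and most of the listed gains sat within a narrow range. The limits at which the authors called regions are not known here, and their part in this range was not tested. The unbagged level, which the rule used, ran from 20.01% to 77.97% with a median of 28.4% (quartiles 23.6% and 35.7%). The bagged level ran from 27.6% to 88.1% with a median of 45.0% (quartiles 38.5% and 53.3%). The gain had a median of 14.9 percentage points (quartiles 13.0 and 17.5), and 6616 of the 7778 regions (85.1%) gained from 10 to under 20 points. A gain under 10 points was listed for 87 regions and a gain of 30 points or more for 118. The bagged level was a median of 1.52 times the unbagged level (quartiles 1.42 and 1.64). In 313 regions (4.02%, 3.60 to 4.48) the bagged level was at least 2 times the unbagged one. In unbagged skin 381 regions (4.90%) had a level of 50% or more, and in bagged skin 2602 did (33.5%).

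**Figure D1:**
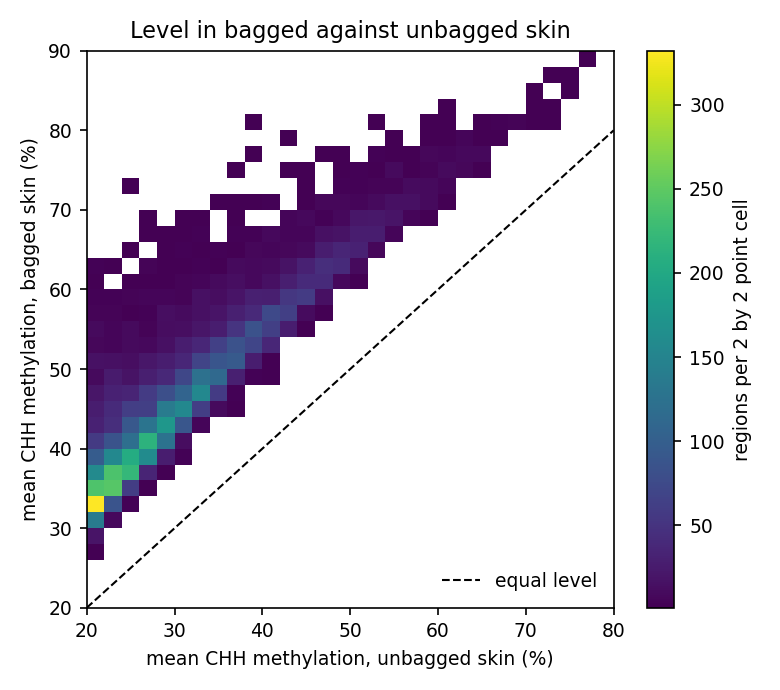
Mean CHH methylation of the 7778 regions in bagged skin (vertical axis, %) against unbagged skin (horizontal axis, %), both as the authors' group means, with the colour giving the number of regions per cell of 2 by 2 points and the dashed line marking equal levels. The regions form a band above the line with a sharp lower edge, whose relation to the authors' calling limits was not tested, and the smallest gain is 6.89 points.

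Set out by unbagged level, the gain in points changed little while the ratio fell. The 2596 regions at 20 to under 25% unbagged had a median gain of 14.0 points (quartiles 12.2 and 17.1), and the 1823 regions at 25 to under 30% had 14.7 points. At 30 to under 40% the median gain of 2083 regions was 15.6 points, and it was 15.6 points for the 895 regions at 40 to under 50%. The 299 regions at 50 to under 60% had 15.1 points and the 82 regions at 60% or more had 13.1 points (quartiles 12.2 and 14.4). The medians of these classes thus lay within 2.52 points of each other, less than the distance between the quartiles in the lowest class. The median ratio fell from 1.63 in the lowest class to 1.21 in the highest. As a share of the methylation still missing from 100%, the median gain went from 18.0% in the lowest class to 37.8% in the highest. The unbagged level enters both the class and the gain, and each region had been called on its difference, so these values describe the listed regions only.

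**Figure D2:**
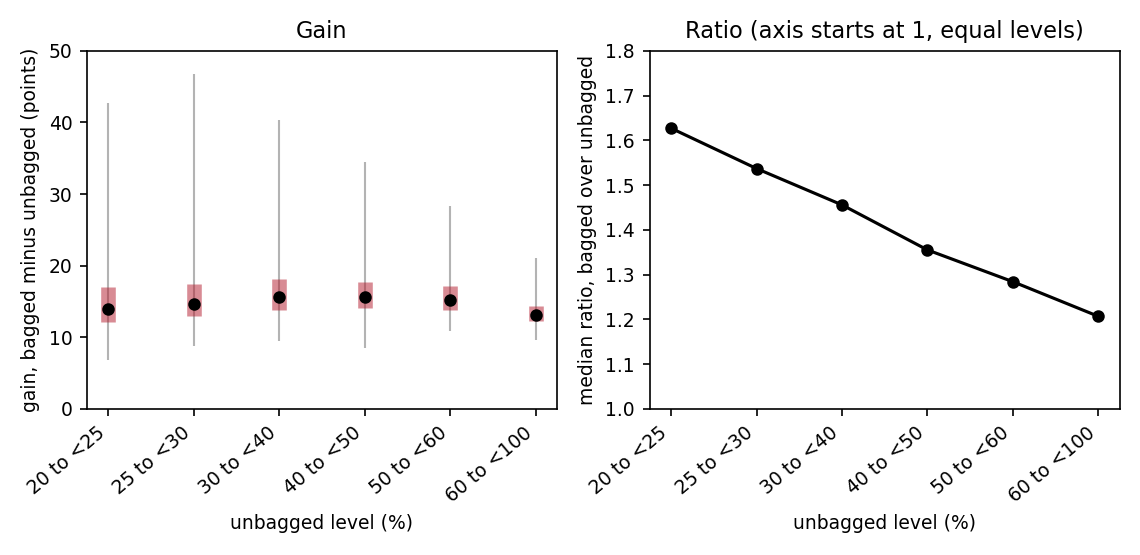
Left, the gain (bagged minus unbagged, percentage points) by class of unbagged level, with the median as a point, the quartiles as a thick bar and the lowest and highest region as a thin line; right, the median ratio of bagged to unbagged level on an axis that starts at 1. The median gain stays between 13.1 and 15.6 points while the median ratio falls from 1.63 to 1.21.

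Against short, isolated gains that started lower, the gain was larger in points and smaller as a ratio. The 12964 isolated short gains under 10% unbagged had a median gain of 8.26 points and a median ratio of 2.58. The 8468 at 10% to under 20% had 11.9 points and 1.84. The unbagged level sets these classes and also enters the gain and the ratio, so these values describe the listed regions only. Isolation itself went with no such difference: the 2980 clustered short gains at 20% or more unbagged, each with another gain within 1000 bp, had a median gain of 14.8 points (quartiles 13.0 and 17.5) and a median ratio of 1.52, the same as the isolated ones to 2 decimals. Being isolated and short was also about as frequent at 20% or more unbagged, with 68.9% of 11294 gains (68.0 to 69.7), as under 20%, with 69.5% of 30834 gains (69.0 to 70.0).

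Length and number of cytosines were close to those of the other short gains. Length, which the rule limited, had a median of 122 bp (quartiles 81 and 177), against 115 bp for isolated gains under 10% and 128 bp for those from 10% to under 20%. A region held a median of 34 CHH cytosines (quartiles 22 and 49, range 4 to 123), and 170 regions had fewer than 10. The density was a median of 27.8 CHH cytosines per 100 bp, against 28.9 in isolated gains under 10% and 28.3 in those between. The CHH losses on chromosomes had a median length of 93 bp and 24 cytosines, with 25.9 per 100 bp. Together the 7778 regions covered 1033 kb and 287654 CHH cytosines.

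The gain was larger where CHH cytosines were sparse. In the 273 regions with under 15 CHH cytosines per 100 bp the median gain was 19.0 points, in the 2438 regions with 25 to under 30 it was 14.9 points, and in the 1083 regions with 35 or more it was 13.4 points. Spearman's rho between density and gain was -0.38 over the 7778 regions. It was -0.33 among regions of 51 to 100 bp and -0.46 among those of 201 to 299 bp, so the relation was present within length classes. It was of similar size in isolated gains under 10% unbagged (-0.43) and in clustered gains from 20% (-0.38), and thus is not particular to the chosen regions. A region with few cytosines rests on fewer measurements. By number of cytosines, the median gain was 17.5 points in the 170 regions with under 10. It was 14.6 to 15.1 points in the classes with 10 or more. The part of the number of measurements and of the authors' calling limits in the relation with density was not tested. The unbagged level was nearly unrelated to density (rho -0.01), to the number of cytosines (-0.04) and to the gap to the nearest gain (0.02). These coefficients describe regions of 1 pair of group means and carry no p.

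The regions with the largest gains among those with at least 10 cytosines reached bagged levels of 60.6 to 80.2%. The largest gain was on chr15:6294528-6294589, with 10 cytosines at 25.4% in unbagged and 72.2% in bagged skin in the authors' deposited table, 46968 bp from the nearest other gain. On chr5:33714733-33714890, 47 cytosines had 21.0% unbagged and 62.9% bagged, and on chr16:15680224-15680371, 28 cytosines had 27.9% and 69.5%. Next in the deposited values came chr12:24357083-24357328 with a gain of 41.6 points, chr16:8458069-8458233 with 40.7 points and chr2:12287198-12287414 with 40.4 points. On chr7:13636159-13636368, the level was 39.9% unbagged and 80.2% bagged over 42 cytosines, so this region combined a large gain with a high start. The last 3 of the leading 10 were chr12:7316903-7317131 (39.5 points), chr10:20467040-20467141 (39.5 points) and chr4:3610299-3610426 (39.4 points).

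Among regions with at least 10 cytosines, the 5 with the highest unbagged level were highly methylated in both groups. On chr16:15310880-15310964, 19 cytosines had 75.7% in unbagged and 86.5% in bagged skin in the authors' deposited table. The next 4 of them were on chr9:1052338-1052389 (74.9% and 85.2%), chr8:12650053-12650140 (74.6% and 86.5%), chr11:5364175-5364245 (74.3% and 85.2%) and chr4:19274025-19274087 (73.8% and 86.9%). Their gains, from 10.3 to 13.1 points, lay at or below the lower quartile of the class at 20 to under 25%, except that of chromosome 4.

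The area statistic, a score of the authors' caller that the table does not explain, followed the number of cytosines (rho 0.98). Its highest value was 834, on chr17:16903284-16903561, where 72 cytosines had 22.0% unbagged and 59.5% bagged. The next were chr7:15339490-15339785 (809, 93 cytosines, a gain of 23.0 points), chr11:28741265-28741552 (785, 106 cytosines, 18.9 points), chr14:2232903-2233134 (779, 55 cytosines, 35.0 points) and chr6:3940488-3940769 (768, 116 cytosines, 19.5 points). The most cytosines, 123, were in a region on chr14:13976194-13976489 at 24.2% and 37.6%. The fewest, 4, were on chr2:23908429-23908491 at 31.2% and 47.7%. A region of 51 bp on chr1:19043252-19043302 (21.9% and 36.3%) stood at the short end, and one of 299 bp on chr12:6859778-6860076 (33.1% and 51.3%) at the long end.

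The 3 regions nearest to each limit of the rule were taken on either side. Their likeness in the limited value follows from that choice, and 3 per side are too few to compare gains. Just inside the level limit were chr15:10198119-10198267 (20.01% unbagged, 34.0% bagged), chr13:1944694-1944861 (20.01%, 36.5%) and chr16:18991524-18991614 (20.01%, 30.1%). Just outside were chr8:5464681-5464861 (19.996%, 31.9%), chr6:1671371-1671427 (19.99%, 33.2%) and chr15:2295303-2295355 (19.99%, 30.6%). The 3 longest regions taken had 299 bp and gains of 14.8 to 18.2 points, and the 3 shortest left out had 300, 301 and 301 bp and gains of 13.9 to 25.8 points. The 3 nearest to another gain lay 1001, 1001 and 1002 bp from it with gains of 10.1 to 24.0 points, and 3 left out at exactly 1000 bp had gains of 13.1 to 17.3 points.

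Few of the chosen regions lay near a listed CG or CHG region, contexts that the rule did not use. Away from direct overlap, those near were mostly lower in bagged skin. Only 3745 CG or CHG regions are listed on chromosomes, over a span of 486 Mb, so a small share is partly set by their number. Sites that are not listed cannot be read as equal in both groups. Of the 7778 regions, 216 (2.78%, 2.42 to 3.17) lay within 1 kb of a CG or CHG region of the table. The share was 2.34% (2.08 to 2.61) for isolated gains under 10% unbagged and 2.53% (2.20 to 2.88) for those from 10% to under 20%. It was higher elsewhere, at 3.66% (3.01 to 4.40) for clustered gains from 20% unbagged, 3.46% for all clustered short gains, 3.85% for gains of 300 bp or more and 4.15% for CHH losses. The 216 had 244 CG or CHG regions near them, and bagged skin had the higher level in 70 of these and the lower in 174, so that 28.7% were higher (23.1 to 34.8). Over all CG or CHG regions on chromosomes, 44.0% were higher. Near isolated gains under 10% unbagged, 60.3% of 345 were higher (54.9 to 65.5), and near those from 10% to under 20%, 43.5% of 239 (37.1 to 50.1). These shares include direct overlaps, which were mostly higher and were unequally frequent. Overlaps were 28 of the 244 near the chosen regions (71.4% higher). They were 124 of the 345 (94.4% higher) and 63 of the 239 (87.3% higher) near the other 2 classes. The classes lie closer together without overlaps, as given below.

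The direction differed with the distance from the CHH gain. In CG context, 16 regions overlapped a CHH gain of the chosen kind by at least 1 bp, and 9 of these were higher and 7 lower in bagged skin. At 1 to 250 bp from the CHH gain, 6 of 47 CG regions were higher and 41 were lower. The 12.8% that were higher (4.83 to 25.7) compare with 38.4% of all 1958 CG regions on chromosomes. At 251 to 1000 bp the share was 30.1% of 73 (19.9 to 42.0), and at 1001 to 5000 bp it was 38.0% of 313 (32.6 to 43.6), close to that of the whole table. In CHG context 11 of 12 overlapping regions were higher, but at 1 to 250 bp 8 of 32 (exact interval 11.5 to 43.4%) and at 251 to 1000 bp 14 of 64 (21.9%, 12.5 to 34.0), against 50.3% of all 1787 CHG regions on chromosomes. At 1001 to 5000 bp it was 45.8% of 240 (39.4 to 52.4). Beside clustered gains from 20% unbagged, 18.2% of 22 CG and 18.2% of 11 CHG regions at 1 to 250 bp were higher. Beside isolated gains from 10% to under 20%, it was 30.8% of 26 CG and 19.2% of 26 CHG regions. For those under 10% it was 36.8% of 38 and 53.1% of 32. A low share at this distance is thus not particular to the chosen regions.

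Counted by chromosome, the CG and CHG regions at 1 to 1000 bp without overlap were more often lower than higher on all 17 chromosomes, from 2 lower and 0 higher on chromosome 1 to 18 lower and 5 higher on chromosome 15. In all, 166 of these 216 regions were lower in bagged skin. Lower ones were also the majority over all CG or CHG regions on chromosomes, of which 44.0% were higher. Their direction was not counted by chromosome. Around isolated gains under 10% unbagged the lower ones were more numerous on 12 chromosomes and the higher ones on 4, with 131 of 222 lower, and around those from 10% to under 20% on 13 and 1 chromosomes, with 127 of 176 lower. In the same band around clustered gains from 20% unbagged, 63 of 95 were lower. Around gains of 300 bp or more, at any unbagged level, 45 of 59 were lower (23.7% higher, 13.6 to 36.6). A low share is thus not particular to the chosen regions. The shares for the 20% and the 10 to 20% classes have overlapping intervals (23.1% higher, 17.7 to 29.4, and 27.8%, 21.4 to 35.1), and the interval of the class under 10% lies above that of the chosen regions (41.0%, 34.5 to 47.8). The differences between classes were not tested.

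**Figure D3:**
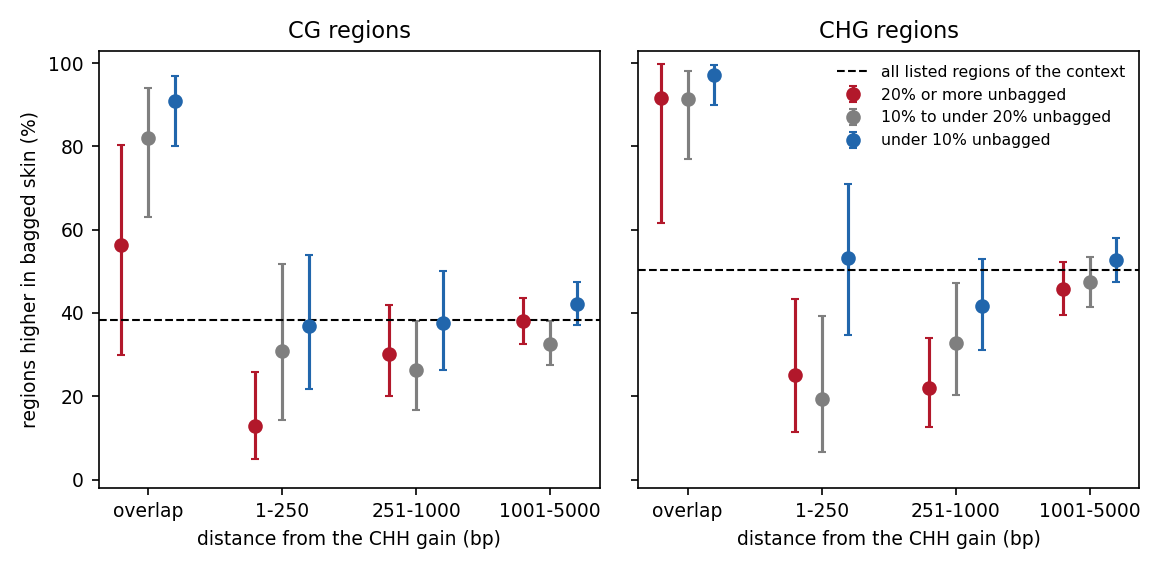
Share of CG (left) and CHG (right) regions of the table that were higher in bagged skin (%), by their distance in bp from an isolated short CHH gain, for gains at 20% or more (red), 10% to under 20% (grey) and under 10% (blue) unbagged. Bars are 95% exact binomial intervals and the dashed lines are all listed regions of the context on chromosomes, 38.4% for CG and 50.3% for CHG; the red CG point at 1-250 bp stands at 12.8%.

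The CG and CHG losses beside the CHH gains began from a wide range of levels. Those at 1 to 250 bp had unbagged levels of 19.0 to 93.9%, with a median of 54.3%. All CG and CHG regions in that band had a median difference of -22.0 points. The 5 CHH gains with both a CG and a CHG region in this band had losses in all of them. Most of these CG and CHG pairs overlapped each other, so their directions are not independent. Over the whole band 65 of 79 CG or CHG regions were lower. The examples with the largest losses, picked after their values were seen, were the following. On chromosome 4, a CG region from 19137919 to 19137989 had 50.4% unbagged and 3.65% bagged, 197 bp from a CHH gain from 19138186 to 19138264 at 22.7% and 38.5%. On chromosome 16, CG methylation from 4634083 to 4634159 was 64.9% unbagged and 19.6% bagged, 22 bp from a CHH gain from 4633951 to 4634061 at 51.1% and 69.5%. On chromosome 6, CHG methylation from 5227197 to 5227283 was 70.3% and 25.6%, and the CHH gain 74 bp away, from 5227035 to 5227123, was among the larger ones at 38.0% and 77.0%. On chromosome 9, a CG region from 13492851 to 13492975 had 67.5% and 27.4%, with a CHH gain from 13493004 to 13493139 at 27.6% and 42.8%.

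Where regions overlapped directly, the direction of the CG difference went with the CG level. The 9 overlapping CG gains had unbagged levels of 24.5 to 56.6% and shared 28 to 104 bp with the CHH gain. The 7 overlapping CG losses had unbagged levels of 76.1 to 93.1% and shared 5 to 52 bp. The level is part of the difference, so a loss needs a start at least as high as its size. A gain needs room above its start, and these overlapping sets are small. The relation is not particular to overlaps. CG regions at 1001 to 5000 bp from the chosen regions had median unbagged levels of 60.2% for losses and 25.9% for gains. Among the overlaps with the largest CG or CHG differences in the authors' deposited table, a CG region on chr15:39308523-39308584 had 25.8% unbagged and 73.5% bagged within a CHH gain from 39308487 to 39308701 (24.3% and 46.8%). A CHG region on chr2:7347366-7347490 had 13.9% and 58.1% within a CHH gain at 21.9% and 43.9%. CHG methylation on chr7:18494491-18494604 was 33.1% and 71.5%, and CG methylation on chr3:14506675-14506778 was 34.1% and 71.0%.

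Opposite directions in overlap were seen on chromosome 11, where a CG region from 3165769 to 3165846 had 76.1% unbagged and 40.3% bagged, while CHH methylation from 3165616 to 3165805 was 29.7% unbagged and 45.6% bagged. On chromosome 15, CG methylation from 35742324 to 35742395 was 78.4% and 45.7% beside CHH levels of 24.3% and 37.2%. One place had gains in every context, on chromosome 1: CHH from 20736462 to 20736735 (20.5% and 38.2%), CHG from 20736574 to 20736669 (38.6% and 73.3%) and CG from 20736626 to 20736683 (24.5% and 58.9%). The remaining overlaps among the 10 with the largest differences were CHG on chr13:699793-699864 (34.6 points) and CG on chr5:3149040-3149127 (32.6 points).

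CHH losses were also found beside the chosen gains. A CHH loss lay within 1 kb of 258 regions (3.32%, 2.93 to 3.74). The share was 2.43% (2.17 to 2.71) for isolated gains under 10% unbagged and 2.61% (2.28 to 2.97) for those from 10% to under 20%. It was 2.08% (1.60 to 2.66) for clustered gains from 20% unbagged, 2.21% for all clustered short gains and 2.03% for gains of 300 bp or more. The share thus did not simply follow the unbagged level. These 258 regions had a median gain of 16.6 points (quartiles 14.2 and 18.9), while the other 7520 had 14.8 points (13.0 and 17.4). The median unbagged level of the 258 was 27.4%. The 265 losses beside them had a median unbagged level of 28.7% and a median bagged level of 11.2%. Both kinds of region were chosen or called by the direction of their difference, so nothing is read from their distance in bagged skin.

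The nearest other CHH gain was itself already methylated more often for the chosen regions than for gains from low levels. The gap to the nearest other CHH gain, at least 1001 bp by the rule, had a median of 4.76 kb, with 1559 regions (20.0%) within 2 kb and 1739 (22.4%) over 10 kb away. The widest gap, 76656 bp, was on chromosome 3 around a region from 27915201 to 27915258 at 38.3% and 52.1%. The nearest gain also had an unbagged level of 20% or more for 32.7% of the regions (31.6 to 33.7). Of all CHH gains on chromosomes, 26.8% had such a level. For isolated gains from 10% to under 20% unbagged the nearest gain had it in 28.3% (27.4 to 29.3), and for those under 10% in 22.1% (21.4 to 22.8). At gaps of 1 to 2 kb the shares were 36.0% (33.6 to 38.4) for the chosen regions, 28.6% (26.5 to 30.8) for the 10% to under 20% class and 19.3% (17.8 to 20.8) for the class under 10%. At gaps over 20 kb they were 34.8% (30.1 to 39.7), 32.3% (27.7 to 37.1) and 27.7% (24.1 to 31.5), with overlapping intervals. The likeness was therefore modest, since a median nearest gain of a chosen region had 13.9% unbagged.

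**Figure D4:**
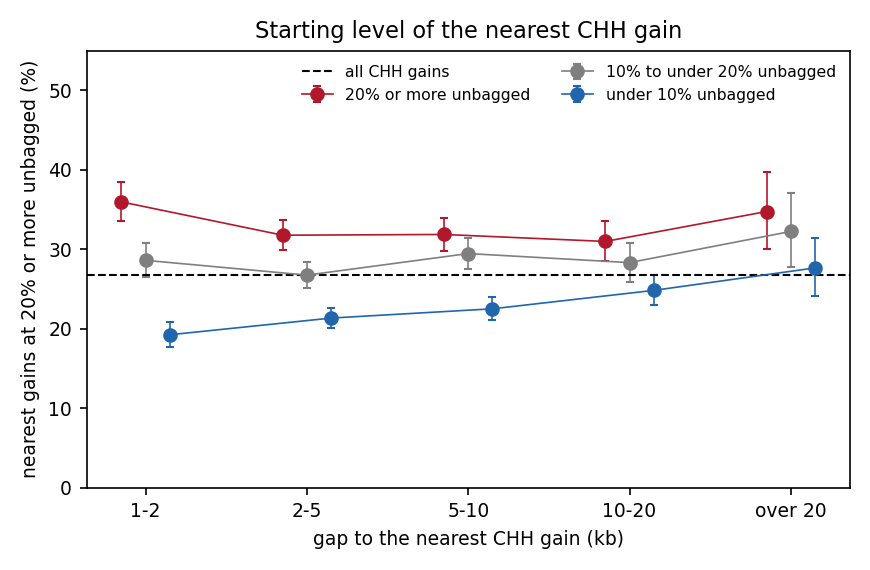
Share of nearest CHH gains with an unbagged level of 20% or more (vertical axis, %) by the gap to that gain (horizontal axis, kb), for isolated short gains at 20% or more (red), 10% to under 20% (grey) and under 10% (blue) unbagged, with 95% exact binomial intervals and the 26.8% of all CHH gains as a dashed line. Red lies above blue by the most at gaps of 1 to 2 kb, 36.0% against 19.3%.

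The regions occurred on all 17 chromosomes at 13.8 per Mb on chromosome 16 to 17.9 per Mb on chromosome 9, taking the last listed position as the chromosome end. As a share of the isolated short gains, they made up from 23.0% on chromosome 16 (21.1 to 25.1) to 30.1% on chromosome 4 (27.7 to 32.7). The median gain per chromosome stayed between 14.4 points on chromosome 9 and 15.4 points on chromosome 6. In windows of 1 Mb the number of regions had a median of 16 (quartiles 12 and 20) over 479 full windows. The fullest, with 34 regions, was on chr4:18000001-19000000 (picked after its value was seen), and 1 window had none.

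Along the chromosomes, the share of isolated short gains that started at 20% or more was higher towards the ends. With each chromosome cut into 10 equal parts, the share was 29.6%, 31.9% and 27.8% in the first 3 parts, 23.9%, 23.0%, 22.9%, 24.4% and 24.9% in the next 5, and 29.9% and 30.1% in the last 2. Over the outer 4 parts (the first 2 and last 2) it was 30.3% (29.5 to 31.2) and over the middle 4 it was 23.5% (22.8 to 24.3). Both kinds of gain differed in number between these parts, in opposite directions. The other isolated gains numbered 45.9 to 51.1 per Mb in the middle 4 parts and 36.6 to 42.3 per Mb in the outer 4. The chosen regions numbered 14.4 to 15.3 per Mb in the middle 4 parts and 15.7 to 18.0 per Mb in the outer 4. On 13 of the 17 chromosomes the outer share was above the middle one, by up to 18.1 points on chromosome 14. It was below it on chromosomes 1, 13, 15 and 16, by as much as 5.41 points on chromosome 13. The gain itself varied little with position, with medians of 14.5 to 15.2 points in the 10 parts.

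**Figure D5:**
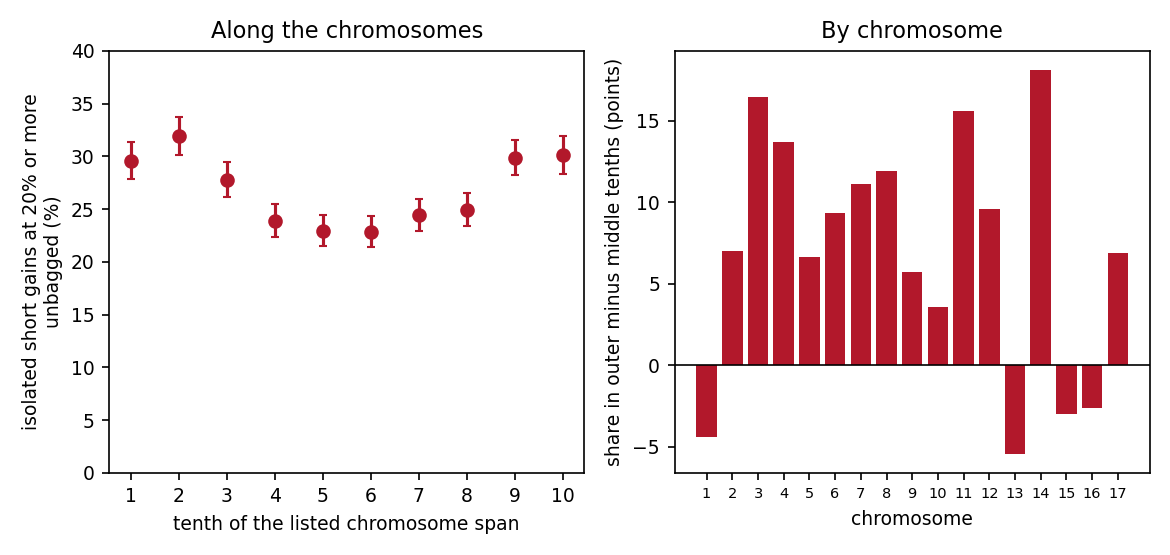
Left, the share of isolated short CHH gains that had 20% or more in unbagged skin (vertical axis, %) in 10 equal parts of the listed chromosome span, with 95% exact binomial intervals; right, that share in the outer 4 parts minus the middle 4 parts (percentage points) for each chromosome. The share is lowest in the middle parts, at 22.9%, and the bars are above 0 on 13 of 17 chromosomes.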

How the data were processed

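Mean methylation levels were deposited by the authors as a fraction from 0 to 1 per region and group, and are printed as percentages. Per the file headers the table also holds the difference, the number of cytosines and an area statistic, taken as a score of the authors' caller. Per the submitters' processing notes, Bismark 0.16.3 (alignment and methylation calls) and FastQC were used. The sources used here do not give the region caller, its limits, the build or the conversion rate. The library kit was Accel-NGS Methyl-Seq, per the labels' protocols. Positions are printed as deposited, with both ends included.

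Gaps were computed as the next start minus the previous end. All CHH gains, long ones included, counted for isolation. Neighbours were every CG, CHG or CHH region within the stated distance (pandas 2.3.3, scipy 1.17.1, Python 3.11.15). The search was tested on simulated data. No test was made, since regions are not replicates and the replicates are combined. Alternatives changed the limits on level, gap, length, cytosines and distance. Named regions were the leading ones by gain, unbagged level and area statistic, the extremes of length and cytosines, those at each limit, and the overlaps. The limits, classes and comparisons were chosen with earlier results of these data known.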

Additional observations from a re-analysis of the deposited data

How the results depend on the processing

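Other settings gave 67 values, of which 51 kept close to the reported one. Close means within 1.5 times for a number of regions and within the 95% binomial interval for a share or a median. By this measure the 11260 regions with an unbagged limit of 15% also count as close. The 51 include the shares without each of the 17 chromosomes, and settings that keep nearly all regions. Such values could move little, so the count is no measure of stability. The number of regions, 7778, was 5182 with an unbagged limit of 25%, 3359 with 30% and 3737 with a gap of 5000 bp. The median unbagged level was 32.9% with a limit of 25% and 28.7% with a gap of 5000 bp. The median gain was 15.2 points, 15.02 points and, with at least 20 points required, 23.2 points. That last limit also gave a median of 32 cytosines and 23.2 per 100 bp, and no length limit gave a median of 35. The share of regions near a CG or CHG region was 0.347% for overlap and 8.83% for 5 kb. The share of those CG or CHG regions that were higher in bagged skin, 28.7%, was 71.4% for overlap, the reverse direction, 38.7% for 5 kb and 35.3% for gains of at least 20 points. The smaller numbers of regions follow from stricter limits, and the share near a CG or CHG region must grow with the distance allowed. The cause of the other moves, the turn at overlap included, was not tested. Without each chromosome in turn, the share of isolated short gains at 20% or more was 26.5 to 26.9%. No paired analysis was possible because the replicates are combined in the deposited means, which also leaves depth and the error of single regions unknown.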
